A study of Mus musculus with 16 samples.

Results

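The genes of the proteasome were examined in the hippocampus of 16 C57BL/6 mice. They were taken as every protein-coding gene whose symbol starts with Psma, Psmb, Psmc, Psmd or Psme, which gave 42 of 14785 protein-coding gene names. These 42 genes hold 178 of the 80137 transcript rows in the data, and a gene level here is the sum of its annotated rows. Of the 42, 41 encode a subunit, an activator or an assembly chaperone. The exception is Psmc3ip, a factor of meiotic recombination named for its binding to Psmc3, which is kept because its symbol meets the rule. All mice were males of 3 months, with 4 mice in each of 4 groups. Homecage (HC) mice were given neither shocks nor trials. Control (Ctrl) mice had no inescapable shock and went through 30 escape trials with 0.4 mA shocks. The remaining mice had all been given 180 inescapable shocks of 0.4 mA and then 30 escape trials. By how they escaped, they were called helpless (LH, learned helpless) or resilient (NLH, non-learned helpless). Both hippocampi of a mouse went into a single library, so fewer cells of a type and less RNA per cell cannot be told apart.

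The proteasome degrades proteins that carry a ubiquitin chain. Its core is a barrel in which outer rings of alpha subunits (Psma genes) gate the entrance and inner rings of beta subunits (Psmb genes) hold the peptidase sites. A cap unfolds and feeds the substrate: its base is a ring of ATPases (Psmc genes), and its other subunits (Psmd genes) bind and remove ubiquitin. Activators (Psme genes) can sit on the core in place of the cap, and interferon can swap the catalytic beta subunits for immunoproteasome forms. In neurons, degradation by the proteasome is known to take part in synaptic plasticity and memory.

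Levels are FPKM, fragments scaled to the length of the transcript and the size of the library, so genes can be compared per length. Depth was estimated at 20150000 to 38050000 fragments per mouse, lowest in LH replicate 4, and a member gene had a median of 1.03 to 1850 fragments over mice. LH replicates 3 and 4 stood apart, with 10846 and 15504 transcripts listed at 0 against 4872 to 7352 in the other 14 mice, so many results are also given without them. All 8 markers of hippocampal neurons were present, with a summed level of 656 to 941 FPKM in LH and 735 to 851 in the other groups. Summed levels of 5 choroid plexus markers ranged from 1.59 to 81.1 FPKM in LH and from 2.39 to 59.0 in the other groups. None of the 8 marker lists held a gene past an adjusted p of 0.05 in any comparison (limma) with all 16 mice. Without LH replicates 3 and 4, 6 of the 47 marker genes passed in LH vs. Ctrl, where 8.1% of all genes did. The part of the markers in the results was not tested.

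Transcription of proteasome genes is known to be driven by Nfe2l1, which binds antioxidant response elements in their promoters. The core letters of that element, TGACNNNGC on either strand, were searched in the RefSeq promoter windows of GRCm38.p6, which run from 250 bases before to 50 after the start of a gene. Psma8, Psmb1, Psmb2, Psmb7, Psmc3, Psmd3 and Psmd7 had no window in the table used. Of the other 35 genes, 6 (17.1%) held the letters, against 16.7% of 11253 protein-coding genes. The windows of these 6 genes are shown because they include Psmd12, Psmc6 and Psme4, which are among the genes with the smallest p-values below. Psma4, Psmc1 and Psmd13, also among those genes, lack the letters, and Psmd7 has no window. The windows are written from 5′ to 3′ on the strand of the gene, with the matched letters in capitals.
Psmb5: gtgaagttgTGACGTCGCggcgttgcca
Psmb6: taaagagagTGACGGAGCgctttacgac
Psmc6: cagccagtaGCTAAGTCAggcattgctc
Psmd9: tctagccggTGACCCCGCccacttccaa
Psmd12: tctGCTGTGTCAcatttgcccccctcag
Psme4: gctgcggctGCAGCGTCAccagaagagc

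The windows lie at chr14:54618024-54618051 on the minus strand (Psmb5), chr11:70525339-70525366 on the plus strand (Psmb6), chr14:45329588-45329615 on the plus strand (Psmc6). The others lie at chr5:123228150-123228177 on the plus strand (Psmd9), chr11:107479278-107479305 on the plus strand (Psmd12), chr11:30771759-30771786 on the plus strand (Psme4). With 0 as the first base of the transcript, the letters start at -47 in Psmb5, -31 in Psmd9, -9 in Psmb6 and -7 in Psme4, and at -227 in Psmc6 and -247 in Psmd12. They read on the strand of the gene in Psmb5, Psmb6 and Psmd9 and on the opposite strand in Psmc6, Psmd12 and Psme4. The box CCAAT of the factor NF-Y was in 37.1% of member windows and 42.2% of all windows, with Psmc1 and Psma7 among its carriers. The STAT letters TTCNNNGAA were in 5.7% and 8.5%, in Psmb8 and Psmd2. The core of the interferon response element was in 11.4% and 3.7%, in Psmb3, Psmd4, Psmd9 and Psme1. Matches of letters are a description and show no binding. Median GC content of the windows was 59.0% in members and 60.3% in all genes.

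Most subunit genes were present at similar levels, and the immunoproteasome genes at a small part of these. Over the 16 mice, the 7 ubiquitous alpha genes had mean levels from 10.7 FPKM (Psma5) to 23.5 FPKM (Psma7), while Psma8, the testis form of the alpha ring, was at 0.0588 FPKM. Beta genes ranged from 10.1 FPKM (Psmb2) to 30.0 FPKM (Psmb6). The 3 catalytic beta genes Psmb5, Psmb6 and Psmb7 had means of 18.7, 30.0 and 10.1 FPKM, and their immunoproteasome counterparts Psmb8, Psmb9 and Psmb10 had 0.346, 0.174 and 4.02 FPKM. ATPase genes other than Psmc2 ranged from 14.9 FPKM (Psmc1) to 33.4 FPKM (Psmc3), the highest level of any member. Non-ATPase genes of the cap ranged from 10.7 FPKM (Psmd12) to 22.8 FPKM (Psmd2, a scaffold of the base that docks ubiquitin shuttles). The assembly chaperones of the base were lower, at 6.52 FPKM (Psmd5) and 2.62 FPKM (Psmd9). Among activators, Psme3, which forms a nuclear activator, was at 20.9 FPKM, and Psme1 and Psme2, which form the interferon-induced activator together, were at 10.4 and 3.22 FPKM. Psme4, the activator linked to histone degradation and DNA repair, was at 7.09 FPKM. The level was below 1 FPKM for 5 genes, Psma8, Psmb8, Psmb9, Psmc2 and Psmc3ip. The remaining 37 are used where a count or median could be set by genes near 0, and 38 of the 42 were above 0 in every mouse.

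**Figure D1:**
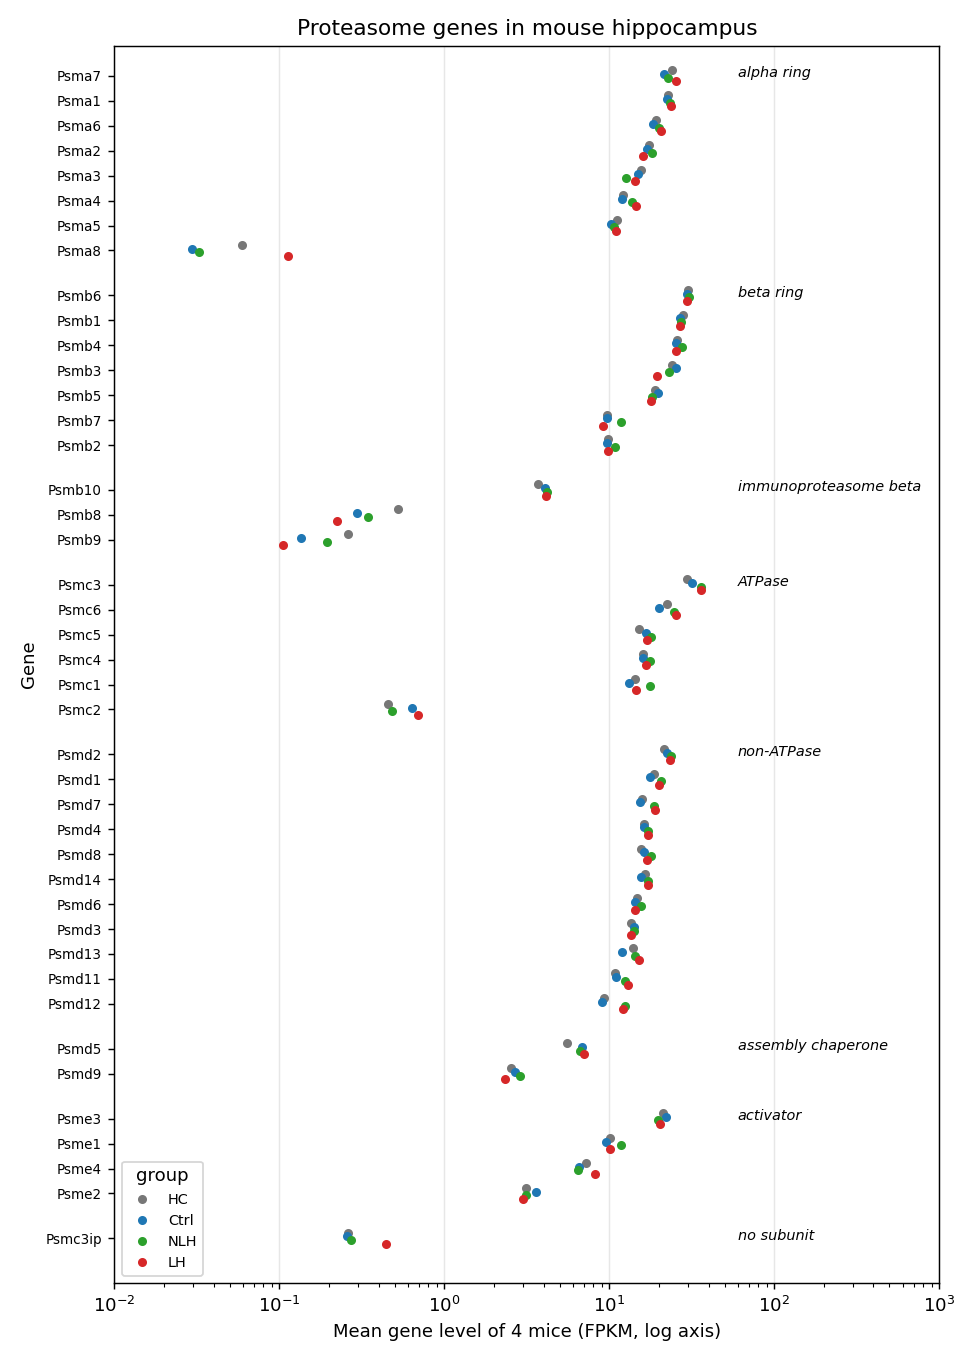
Mean level of each of the 42 genes in the 4 mice of a group (FPKM, log axis, 1 point per group), by class. Subunit genes of core and cap sit near or above 10 FPKM in all 4 groups, apart from Psma8, Psmc2 and the immunoproteasome genes. Psmb10 is at 3.70 to 4.19 FPKM, and Psmb8 and Psmb9 are below 1 FPKM.

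The low annotated level of Psmc2, which encodes an ATPase that the cap cannot do without, depended on how transcripts were named. Its 2 annotated rows averaged 0.566 FPKM, whereas 1 assembled row at the same locus that carries no annotation averaged 18.8 FPKM and made up 97.1% of the locus. With this row added, Psmc2 was at 19.4 FPKM on average and between 15.3 and 22.9 FPKM over the 16 mice, within the range of the other ATPase genes. The same held in part for Psmb7, the subunit with trypsin-like activity, where rows without annotation averaged 9.52 FPKM, or 48.6% of the locus. In NLH the annotated rows of Psmb7 were at 9.22, 13, 15 and 9.63 FPKM, and in LH at 11, 12.3, 7.26 and 6.19 FPKM, a log2 difference of -0.37 ± 0.21 (SE) with an adjusted p of 0.743 (limma). Over the whole locus the group means were 19.0 ± 2.29 (SD, n = 4) and 18.7 ± 2.71 FPKM, and the log2 difference shrank to -0.03 ± 0.11 (adjusted p = 0.981). The difference of the annotated rows was also 0.02 ± 0.19 (adjusted p = 0.968) without LH replicates 3 and 4. Rows without annotation stood at 22 of the 42 loci, 48 in all, and their share was 24.7% at Psme4 and below 15% at the other 19. Psmd1 and Psmd14 share their locus with another gene name, so reads there may be divided between genes.

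**Figure D2:**
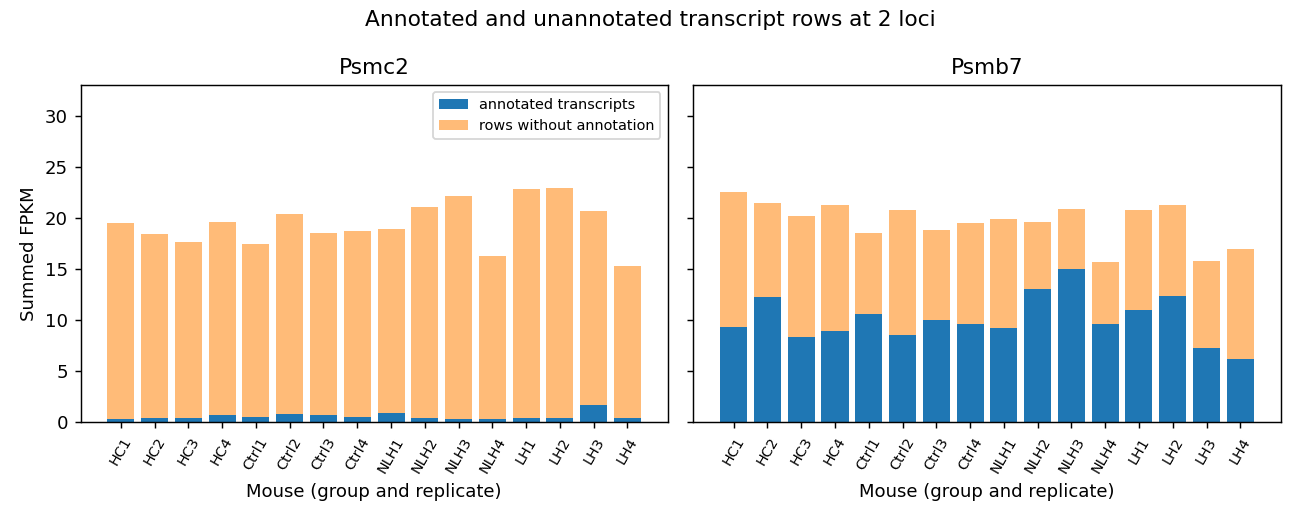
Summed FPKM of annotated rows (blue) and of rows without annotation (orange) at Psmc2 and Psmb7, 1 stacked bar per mouse. At Psmc2 nearly all of the level is unannotated, and the sum stays between 15.3 and 22.9 FPKM. At Psmb7 the annotated part ranges from 6.19 to 15 FPKM over mice while the sum ranges from 15.7 to 22.5 FPKM.

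Ctrl vs. HC asks what the escape trials and their handling go with, NLH vs. Ctrl and LH vs. Ctrl what prior inescapable shock goes with in mice that later did or did not escape, and LH vs. NLH what separates these outcomes after equal shocks. LH vs. Ctrl and NLH vs. Ctrl share their Ctrl mice, and each group enters more than 1 comparison, so the comparisons are not independent of each other. Differences are in log2(FPKM + 0.1), given with their standard error, and p-values come from limma with adjustment over all 14785 genes, or all 80137 transcripts. Differences of low genes are understated on this scale.

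At the gene level, none of the 42 members passed an adjusted p of 0.05 in any of the comparisons or in the F-test across the 4 groups. Of all genes, 0.0% passed in Ctrl vs. HC, 0.0% in NLH vs. Ctrl, 0.0541% in LH vs. Ctrl, 0.00676% in LH vs. NLH and 0.0879% in the F-test. At an unadjusted p under 0.05 (limma), 0 members were counted in Ctrl vs. HC, where 2.64% of all genes were. In NLH vs. Ctrl it was 4 members, or 9.52%, against 5.96% of all genes. In LH vs. Ctrl it was 6 members, or 14.3%, against 11.8%. In LH vs. NLH it was 1 member, or 2.38%, against 7.03%. In the F-test it was 2 members, Psmd7 and Psmd12, or 4.76%, against 10.4%. The members counted were all at a positive difference: Psmd12, Psmd7, Psmc1 and Psmd13 in NLH vs. Ctrl, Psmd7, Psmd12, Psmd13, Psmc6, Psma4 and Psme4 in LH vs. Ctrl, and Psme4 in LH vs. NLH.

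The median difference of the 42 members was close to that of all genes in each comparison. It was -0.02 against 0.03 in Ctrl vs. HC, 0.09 against 0.07 in NLH vs. Ctrl, 0.03 against 0.01 in LH vs. Ctrl, and for LH vs. NLH it was -0.03 against -0.05. Among the 37 members at 1 FPKM or more, 15 (40.5%) had a positive difference in Ctrl vs. HC, against 59.5% of 10108 genes at that level. In NLH vs. Ctrl 28 (75.7%) did, against 67.3%, in LH vs. Ctrl 21 (56.8%), against 54.5%, and in LH vs. NLH 13 (35.1%), against 39.5%.

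**Figure D3:**
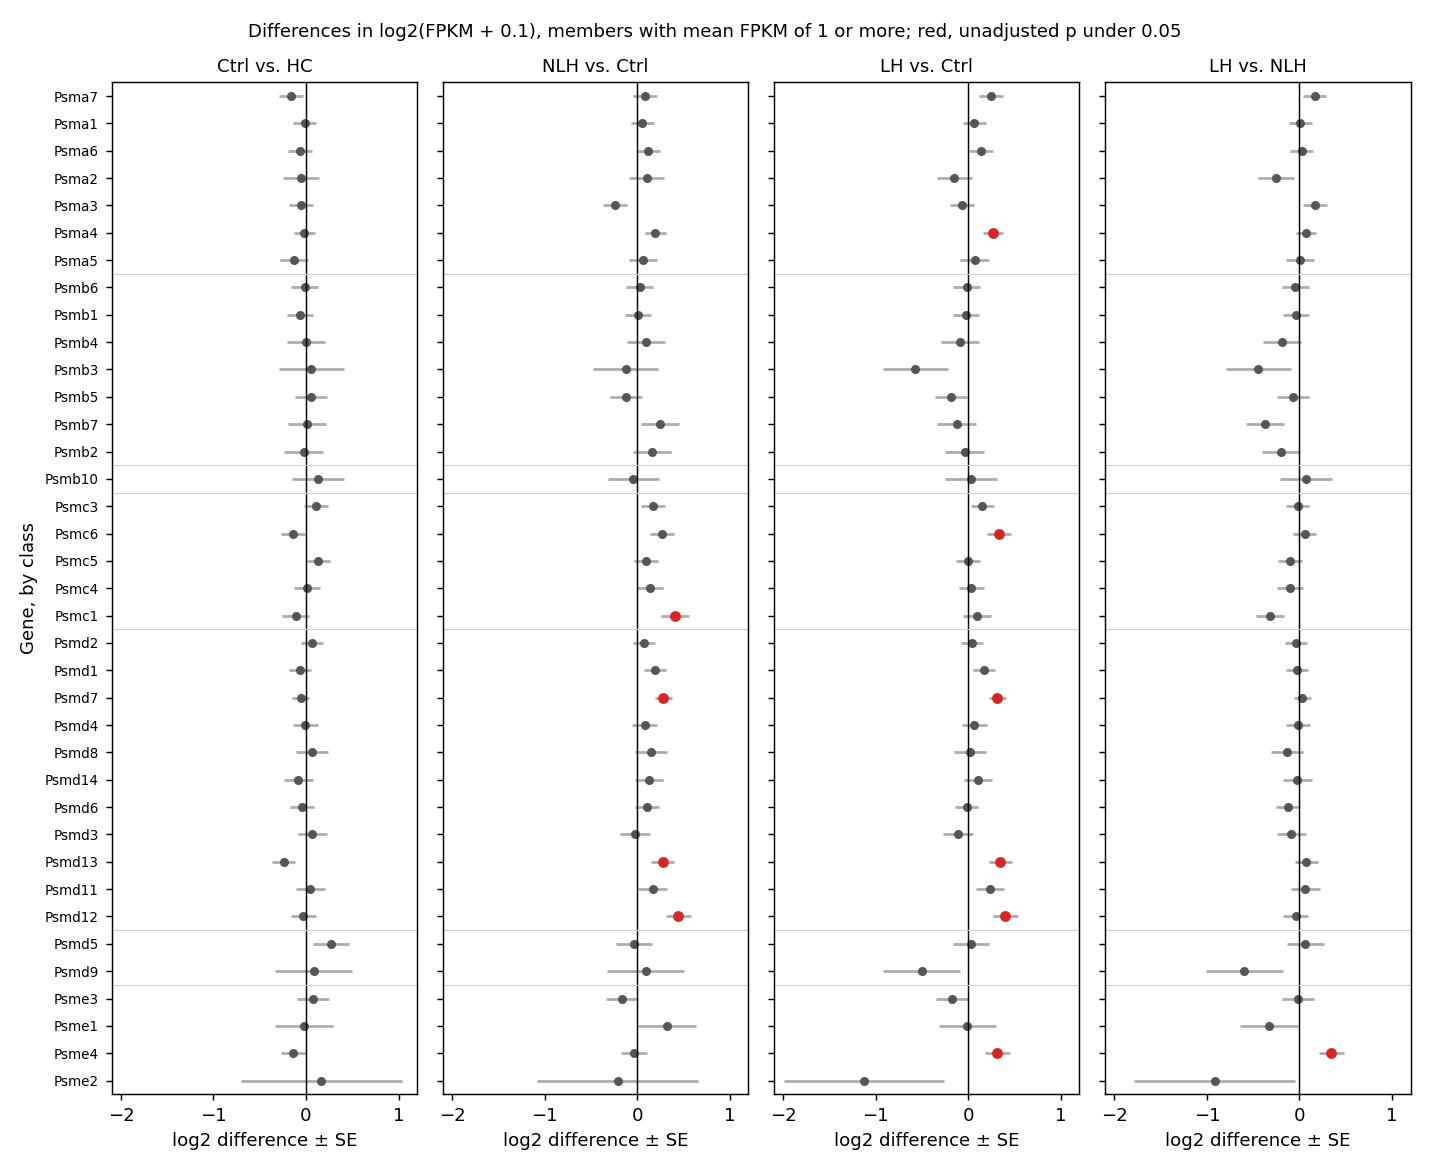
Log2 difference with its standard error for the 37 members at a mean of 1 FPKM or more, by class from the alpha ring at the top to the activators at the bottom, in each of the 4 comparisons. Red points have an unadjusted limma p under 0.05, and no point has an adjusted p under 0.05. The 7 beta ring genes from Psmb6 to Psmb2 are all at or left of 0 in LH vs. Ctrl, and Psme2 has the widest error.

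The member with the smallest p-value over the 4 comparisons was Psmd7, a subunit of the lid, the part of the cap that removes ubiquitin. Psmd7 pairs with the deubiquitinase Psmd14 and was at 15.3, 15.8, 15.5 and 16.9 FPKM in the HC mice and at 14.9, 15.5, 15.6 and 15.1 FPKM in the Ctrl mice. In NLH mice it was at 17.4, 21.3, 19.4 and 16.7 FPKM, and in LH mice at 21.1, 18.8, 18.1 and 18.2 FPKM. Every NLH and every LH mouse was thus above every Ctrl mouse, whereas HC overlapped Ctrl. Its spread within groups was 7.56% of the mean, the lowest of the 42 genes. The difference was 0.31 ± 0.09 in LH vs. Ctrl (adjusted p = 0.188) and 0.28 ± 0.09 in NLH vs. Ctrl (adjusted p = 0.542), and 0.03 ± 0.09 in LH vs. NLH (adjusted p = 0.958). A two-sided exact permutation test gave p = 0.0286 for NLH vs. Ctrl and for LH vs. Ctrl. This is the smallest that 4 mice against 4 can give, and any 2 groups without overlap reach it. Groups without overlap were found for 2 members in Ctrl vs. HC, 3 in NLH vs. Ctrl, 2 in LH vs. Ctrl, with 0 for LH vs. NLH. Over all genes the shares were 5.84%, 6.73%, 5.99% and 1.97%.

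Psmd12, another lid subunit, was at 8.67 to 9.78 FPKM in HC and at 8.41, 10.4, 8.89 and 8.71 FPKM in Ctrl. NLH mice had 12.9, 13.2, 14.7 and 9.26 FPKM and LH mice 13.9, 12.4, 11.7 and 10.2 FPKM. In both shocked groups 3 mice were above all Ctrl mice, and the lowest mouse lay inside the Ctrl range. The difference was 0.44 ± 0.13 in NLH vs. Ctrl (adjusted p = 0.509) and 0.40 ± 0.13 in LH vs. Ctrl (adjusted p = 0.253). Psmd13, also of the lid, was at 13 to 16.1 FPKM in HC and at 11.7, 12.9, 9.30 and 13.7 FPKM in Ctrl. Its LH mice had 15, 16.9, 15 and 13.3 FPKM, a difference of 0.35 ± 0.12 from Ctrl (adjusted p = 0.285), and its NLH mice 13.3 to 16.3 FPKM. A row without annotation at the Psmd13 locus ran the other way, at 3.15 ± 0.487 FPKM in Ctrl and 1.33 ± 0.957 FPKM in LH. With that row added the difference was 0.12 (adjusted p = 0.715) in LH vs. Ctrl and -0.08 in Ctrl vs. HC. Ctrl replicate 3 was the lowest of the 16 mice, and Ctrl vs. HC was at -0.24 ± 0.12 (adjusted p = 1). Of all 11 non-ATPase genes, 10 had a positive difference in NLH vs. Ctrl and 9 in LH vs. Ctrl, with medians of 0.15 and 0.11 against 0.07 and 0.01 for all genes. In LH vs. NLH the median was -0.03, and 3 of the 11 were positive, whereas without LH replicates 3 and 4 the median was 0.16 and 11 of 11 were positive, with a median of 0.16 for all genes as well. Against Ctrl the LH median was then 0.33, against 0.23 for all genes. With median-ratio size factors, which take out a shift shared by most genes of a mouse, 9 and 8 of the 11 were positive against Ctrl, with both medians at 0.07, and 8 of 11 in LH vs. NLH, where the median turned to 0.01.

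Among the ATPases, Psmc1, whose tail helps to open the gate of the core, separated NLH from Ctrl. Ctrl mice had 12.0, 13.7, 12.7 and 14.5 FPKM and NLH mice 15.6, 18.7, 20.2 and 16.3 FPKM, without overlap, a difference of 0.41 ± 0.15 (adjusted p = 0.650, exact permutation p = 0.0286). LH mice formed a high pair and a low pair, at 17.7 and 17.9 FPKM in replicates 1 and 2 and 10.8 and 11.5 FPKM in replicates 3 and 4. Psmc6 was at 18.3 to 21.6 FPKM in Ctrl, at 19.2 to 29.1 FPKM in NLH and at 20.3 to 29.5 FPKM in LH, and differed by 0.33 ± 0.13 in LH vs. Ctrl (adjusted p = 0.329). Psmc5, the one ATPase gene without overlap in Ctrl vs. HC, was at 16.7 ± 0.299 (SD, n = 4) FPKM in Ctrl and 15.2 ± 0.392 FPKM in HC, a difference of 0.14 ± 0.13 (adjusted p = 1).

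**Figure D4:**
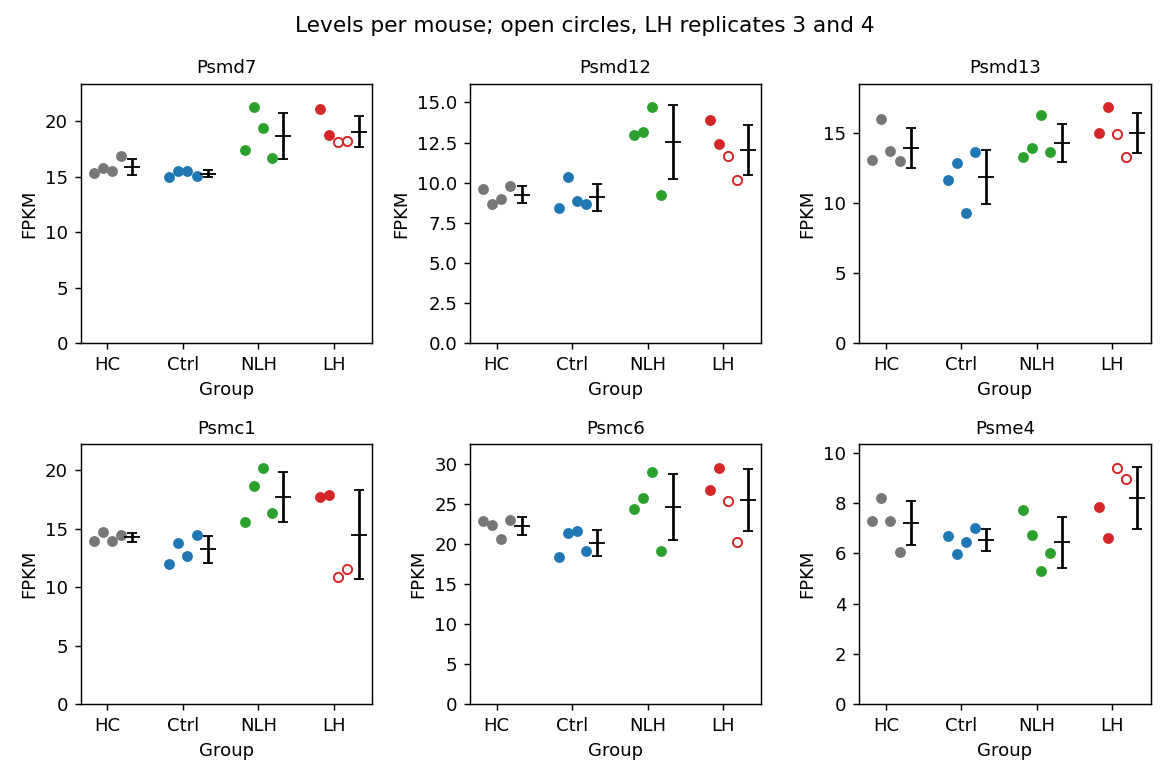
FPKM of 6 members in each mouse, by group, with the mean and SD of 4 mice in black. Open circles are LH replicates 3 and 4. Psmd7 is above all Ctrl mice in every NLH and LH mouse, Psmc1 in every NLH mouse, and Psme4 is highest in the open circles of LH.

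Of the 8 alpha genes, 1 was without overlap in each of Ctrl vs. HC, NLH vs. Ctrl and LH vs. Ctrl. The shares of all genes were 5.84%, 6.73% and 5.99%. Psma4 was at 11.5 to 12.5 FPKM in Ctrl and at 17.5, 14.8, 13.1 and 12.8 FPKM in LH, a difference of 0.26 ± 0.11 (adjusted p = 0.358). Psma3 was at 14.0 to 16.2 FPKM in Ctrl and at 11.5 to 13.2 FPKM in NLH, a difference of -0.24 ± 0.13 (adjusted p = 0.869). In Ctrl vs. HC, 8 of 8 alpha genes had a negative difference, and 8 of 8 did with size factors. Psma8, near 0 FPKM, was at -0.26 ± 0.40, and the others ranged from -0.16 to -0.01. The median of the 8 was -0.06, against 0.03 for all genes. The smallest adjusted p among the 8 was 1. Psma5 was without overlap in Ctrl vs. HC, at 10.2 ± 0.377 FPKM in Ctrl and 11.2 ± 0.290 FPKM in HC. In LH vs. NLH 7 of 8 alpha genes had a positive difference, Psma8 among them at 0.46 ± 0.40. The median of the 8 was 0.04, against -0.05 for all genes. Without LH replicates 3 and 4, 8 of 8 were positive, with a median of 0.20 against 0.16.

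The beta ring showed the opposite sign. Set against either Ctrl or NLH mice, LH mice had 7 of 7 genes with a negative difference. The medians were -0.09 and -0.19, against 0.01 and -0.05 for all genes, and no beta gene had an adjusted p under 0.561. With size factors 7 of 7 and 6 of 7 were negative. The sign came with LH replicates 3 and 4: without both, 7 of 7 beta genes were positive in LH vs. Ctrl and 6 of 7 in LH vs. NLH. The beta medians were then 0.19 and 0.16, against 0.23 and 0.16 for all genes. Psmb3 had the largest difference from Ctrl, at 17.4 to 29.6 FPKM in Ctrl and at 22.6, 28.5, 20.8 and 5.85 FPKM in LH, so that a single mouse lay far below. Psmb5, the subunit with chymotrypsin-like activity and the target of proteasome inhibitors, was at 18.4 to 20.8 FPKM in Ctrl, 16.3 to 21.2 FPKM in NLH and 20.7, 24.4, 15.3 and 11.4 FPKM in LH. Psmb6, with caspase-like activity, was at 25.7 to 32.0 FPKM in Ctrl and 23.6 to 38.8 FPKM in LH. Their differences in LH vs. Ctrl were -0.19 ± 0.17 and -0.02 ± 0.15, less than the spread between mice. Without LH replicates 3 and 4 they were 0.19 ± 0.11 (adjusted p = 0.251) and 0.21 ± 0.14 (adjusted p = 0.349).

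Immunoproteasome genes were low and variable. Psmb10 was at 2.68 to 4.43 FPKM in HC mice and 2.77 to 5.12 FPKM in Ctrl mice. It was at 1.93 to 6.02 FPKM in NLH mice and 3.37 to 4.71 FPKM in LH mice, and all groups overlapped. Psmb8 and Psmb9 rested on a median of 7.85 and 4.60 fragments per mouse and were both listed at 0 in LH replicate 4, Psmb9 also in LH replicate 3 and NLH replicate 1. Standard errors of their log2 differences were 0.47 and 0.56, and none of these differences passed the test. The 3 immunoproteasome genes together made up 7.07% ± 0.828 (SD, n = 4) of the FPKM of the 6 catalytic genes in HC. The share was 7.06% ± 1.31 in Ctrl, 7.07% ± 2.20 in NLH and 7.55% ± 1.77 among LH mice, or 7.59% and 5.11% in LH replicates 1 and 2. Psmb10 gave most of it, and 59.2% of the Psmb10 level stood in retained intron rows. Over coding rows alone HC mice had a share of 3.99% ± 0.406, Ctrl mice 3.30% ± 0.356, NLH mice 3.68% ± 1.07 and LH mice 3.66% ± 0.926, with the rows without annotation at Psmb7 left out of both. Microglia, a cell type known to carry immunoproteasome, had 10 markers measured with a summed level of 60.6 to 77.9 FPKM in HC, Ctrl and NLH and 50.6 to 79.5 FPKM in LH.

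Psme4 was the one activator gene with an unadjusted p under 0.05. It was at 6.06 to 8.19 FPKM in HC, 6.69, 5.99, 6.43 and 6.99 FPKM in Ctrl, 7.70, 6.71, 5.30 and 6.02 FPKM in NLH, and 7.83, 6.61, 9.38 and 8.93 FPKM in LH. The difference was 0.31 ± 0.14 in LH vs. Ctrl (adjusted p = 0.384) and 0.34 ± 0.14 in LH vs. NLH (adjusted p = 0.641). Its 2 highest mice were LH replicates 3 and 4, and without both the difference was 0.14 ± 0.15 from Ctrl (adjusted p = 0.557) and 0.17 ± 0.15 from NLH (adjusted p = 0.561). Psme2 was listed at 0 in LH replicate 4 and was at 3.28, 4.36 and 4.44 FPKM in the other LH mice, against 2.83 to 5.49 FPKM in Ctrl. Its difference in LH vs. Ctrl was -1.13 ± 0.87 (adjusted p = 0.652) with that library and 0.21 ± 0.31 (adjusted p = 0.770) without it. Psme1 ranged from 6.24 to 16 FPKM within HC alone, and Psme3 was at 20.4 to 24.1 FPKM in Ctrl and 15.1 to 30.3 FPKM in LH. Of the assembly chaperones, Psmd5 was at 5.01 to 6.04 FPKM in HC and 5.41 to 8.88 FPKM in Ctrl (0.27 ± 0.20, adjusted p = 1), and Psmd9 at 0.44 FPKM in LH replicate 4 against 2.31 to 3.83 FPKM in the other LH mice. The difference of Psmd9 in LH vs. Ctrl was -0.50 with all LH mice and 0.28 ± 0.16 (adjusted p = 0.266) without LH replicates 3 and 4. Psmc3ip, which is no subunit, was at 0.24 to 0.60 FPKM in LH and 0.19 to 0.33 FPKM in Ctrl (0.56 ± 0.32, adjusted p = 0.534).

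The 37 members at 1 FPKM or more deviated together from mouse to mouse, and with all genes of the mouse. In LH replicates 1 and 2, 34 and 34 of the 37 were above their own median over the 16 mice, and in LH replicates 3 and 4 15 and 9 were. Deviations in log2(FPKM + 0.1) were taken from the mean of each gene over the 16 mice. The median deviation of the members was 0.16, 0.32, -0.05 and -0.36 in LH replicates 1 to 4, where all genes had 0.20, 0.26, -0.07 and -0.29. NLH was divided likewise, with 31 and 34 members above their median in replicates 2 and 3 and 17 and 5 in replicates 1 and 4. The members deviated from all genes by at most 0.07 in any mouse.

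Without LH replicates 3 and 4, LH vs. Ctrl rests on 2 LH mice, which are taken to vary like the other groups. The median difference of the members was then 0.25, against 0.23 for all genes. In LH vs. NLH it turned from -0.03 to 0.18, against 0.16 for all genes, and 40 of the 42 members were at a positive difference in place of 16. In LH vs. Ctrl 6 members (14.3%) were called at an adjusted p under 0.05, against 8.1% of all genes, and at an unadjusted p 16 members (38.1%), against 28.1%. In LH vs. NLH 0 members were called and 4 (9.52%) were at an unadjusted p under 0.05, against 17.3% of all genes. The 6 were Psma4 (0.42 ± 0.11, adjusted p = 0.0333), Psmc1 (0.43 ± 0.11, 0.0310), Psmc6 (0.48 ± 0.13, 0.0392), Psmd7 (0.38 ± 0.10, 0.0333), Psmd12 (0.53 ± 0.15, 0.0419) and Psmd14 (0.34 ± 0.09, 0.0372). The F-test called Psmc1, Psmd7 and Psmd12, 7.14% of members against 6.71% of all genes. Psmd7, Psmd12 and Psmc6 had positive differences in LH vs. Ctrl with all 4 LH mice too, also with size factors (0.28, 0.36 and 0.29). With all 4 LH mice Psma4 had 0.26 ± 0.11, Psmc1 0.10 ± 0.15 and Psmd14 0.11 ± 0.15.

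Single transcripts gave 1 call. Of the 178 member transcripts, 74 are annotated as protein coding in GENCODE vM21 and hold 89.4% of the members' FPKM, and 65 as retained introns, with 6.11%. The call was ENSMUST00000169195.1 of Psmd2, a processed transcript without a coding sequence of its own that makes up 0.896% of the level of the gene. It was at 0.63, 0.52, 0.62 and 0.90 FPKM in the Ctrl mice and below 0.001 FPKM in all 4 LH mice, in 3 of 4 NLH mice (0.19 FPKM in replicate 3) and in 2 HC mice (0.27 and 0.14 FPKM in replicates 1 and 2). Its level was thus lower in LH mice than in Ctrl mice (adjusted p = 0.0383), and its log2 difference of -2.92 ± 0.46 depends on the 0.1 added, since it was -0.73 ± 0.10 with 1 added. NLH vs. Ctrl (-2.54 ± 0.46, adjusted p = 0.125) and Ctrl vs. HC (2.14 ± 0.46, adjusted p = 1) did not pass. The call was lost with 0.01 added, with the replicate number as a block and when any 1 of the 4 Ctrl mice, NLH replicate 2 or LH replicate 3 or 4 was left out. The sum of the Psmd2 rows was 22.1 to 23.2 FPKM across the other Ctrl mice and 21.8 FPKM in Ctrl replicate 1, and ranged from 17.6 to 28.3 FPKM in LH.

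The share of all transcripts past an adjusted p of 0.05 was 0.00374% in Ctrl vs. HC, 0.0125% in NLH vs. Ctrl, 0.0462% in LH vs. Ctrl, with 0.0412% for LH vs. NLH, where 0, 0, 1 and 0 members passed. At an unadjusted p, 4 member transcripts (2.25%) were counted in Ctrl vs. HC against 3.45% of all, 8 (4.49%) in NLH vs. Ctrl against 5.12%, 13 (7.3%) in LH vs. Ctrl against 10.7% and 9 (5.06%) in LH vs. NLH against 8.72%. The main coding transcript of the ATPase gene Psmc4, ENSMUST00000032824.9, with 64.4% of the level of the gene, was at 7.72 to 11 FPKM in Ctrl, 11.7 to 14.5 FPKM in NLH and 7.54 to 10.3 FPKM in LH. NLH did not overlap Ctrl or LH (0.48 ± 0.14 in NLH vs. Ctrl, adjusted p = 0.535, and -0.54 ± 0.14 in LH vs. NLH, adjusted p = 0.274), while HC mice, at 9.52 to 13.4 FPKM, overlapped NLH. The groups overlapped for the gene sum. Another coding transcript of Psmc4, ENSMUST00000140053.2, was at 0 to 2.88 FPKM in NLH and 1.12 to 6.22 FPKM in LH (2.69 ± 1.17, adjusted p = 0.543). In Psmd13, the retained intron transcript ENSMUST00000151644.7, 26.2% of the gene, was at 1.24 to 3.91 FPKM in Ctrl and 4.58 to 6.53 FPKM in LH without overlap (1.00 ± 0.35, adjusted p = 0.331), while the other annotated rows of Psmd13 summed to 9.07 ± 2.98 (SD, n = 4) and 9.68 ± 2.20 FPKM.

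Genes that work with the proteasome gave no call in the same comparisons with all 16 mice. The 6 lists examined held 49 measured genes: other subunits and assembly factors, bound deubiquitinases and ligases, ubiquitin genes and activating enzymes, shuttles and extraction, transcriptional control, and interferon and antigen presentation. With all mice none held a gene with an adjusted p under 0.05 (limma). Without LH replicates 3 and 4, 3 of the 49 (6.12%) were called in LH vs. Ctrl, Shfm1, Uba6 and Ubqln1, against 8.1% of all genes. Nfe2l1 was at 25.4 ± 1.01 (SD, n = 4) FPKM in Ctrl and 23.8 ± 5.77 FPKM in LH (-0.13 ± 0.15, adjusted p = 0.787, and 0.18 ± 0.13 without LH replicates 3 and 4). The smallest p of the 49 genes was that of Rps27a, which encodes ubiquitin fused to a ribosomal protein, at 8.92 ± 0.583 FPKM in Ctrl, 17.8 ± 3.00 in NLH and 11.4 ± 5.02 in LH (0.98 ± 0.27 in NLH vs. Ctrl, adjusted p = 0.444). Nfe2l2, which drives proteasome genes under oxidative stress, was at 2.38 ± 0.228 (SD, n = 4) FPKM in Ctrl and 3.07 ± 0.277 FPKM in LH (0.35 ± 0.14, adjusted p = 0.317). Shfm1, the small lid subunit also called Sem1, was at 3.43 ± 0.293 FPKM in Ctrl, 4.46 ± 0.395 in NLH and 4.86 ± 0.882 in LH (0.48 ± 0.14 in LH vs. Ctrl, adjusted p = 0.202). Psmf1, an inhibitor of the core, was at 4.85 ± 0.318 FPKM in Ctrl, 5.16 ± 0.711 in NLH and 3.81 ± 0.731 in LH (-0.44 ± 0.14 in LH vs. NLH, adjusted p = 0.514, and -0.22 ± 0.13 without LH replicates 3 and 4). Ube3a, a ubiquitin ligase that binds the proteasome, was at 31.1 ± 3.44 FPKM in LH and 24.8 ± 1.30 in Ctrl (0.32 ± 0.15, adjusted p = 0.405). Of the 15 genes of interferon response and antigen presentation, 2 (13.3%, against 11.8% of all genes) had an unadjusted p under 0.05 in LH vs. Ctrl. The same count in LH vs. NLH compares with 7.03% of all genes. In both it was Ifit3 and Isg15, at negative differences, also without LH replicates 3 and 4, and with no adjusted p under 0.330 over all mice.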

How the data were processed

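FPKM values per transcript and mouse were made by the authors, who per their methods aligned reads to mm10 with HISAT2 (the submitters' processing notes name STAR 2.42a), merged transcripts over all mice with StringTie 1.2.3 and quantified them with Cufflinks. The deposited FPKM are not counts and were not scaled between mice, so no counting interval is given. Depth was read from the steps between low FPKM of transcripts over 2000 bases, with fragments assumed to be 200 bases long, and put 65.5% to 73.4% of these values within 0.1 of whole fragments.

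Protein-coding rows were summed per gene name. Limma 3.58.1 (R 4.3.3, with data.table in version 1.17.8) modelled log2(FPKM + 0.1) by the 4 groups, using all 16 mice, a mean-variance trend and robust moderation. P-values were adjusted by Benjamini-Hochberg over every feature. The paper's methods used an unadjusted Student test, tried here as an alternative. On simulated data with 200 genes changed by a factor of 4, 94% were recovered in LH vs. Ctrl over 14785 genes, with 10 of 198 calls unchanged. Of 200 transcripts, 71.5% were recovered over 80137. The simulated noise had the same spread in all groups and no shift shared by the genes of a mouse. No member gene differed by a factor of 4, so recovery of differences of the members' size was not tested. The FPKM give no sign of a library deposited more than once. The labels name 4 mice per group, 1 library each.

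Members and lists were chosen with earlier results of these data known. Named genes are the catalytic, immunoproteasome and activator genes, the 3 members with the smallest p in each comparison, the called transcripts and the 3 with the smallest p at 1 FPKM or more, the highest and lowest member of each class, and Psmc3ip. Psma3, Psma5, Psmb3, Psmc5, Psmc6, Psmd14 and the list genes given with values were named after their values were seen. Positions came from GENCODE vM21 (GRCm38). Python 3.11.15, numpy 2.4.6, pandas 2.3.3, scipy 1.17.1 and matplotlib 3.10.9 did the rest.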

Additional observations from a re-analysis of the deposited data

Results flagged for a closer look

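Among 100 groups of 4 mice tested over 25 named members, 5 held a mouse whose gap to the nearest other mouse was large against the range of its group (Dixon's test). Chance gives about 1 in 20 such groups. Psma4 was at 10.8 FPKM in HC replicate 2, against 12.6 to 12.8 FPKM in the other HC mice. Psmc2 was at 1.64 FPKM of annotated rows in LH replicate 3, against 0.362 to 0.389 FPKM in the other LH mice. Psme2 was at 5.49 FPKM in Ctrl replicate 2, against 2.83 to 3.07 FPKM. Psma8 was at 0.0541 FPKM in Ctrl replicate 2, against 0.0197 to 0.0241 FPKM, and at 0.376 FPKM in LH replicate 4, against 0 to 0.049 FPKM, on at most 11.3 estimated fragments.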

How the results depend on the processing

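The count of called member genes stayed at 0 in every comparison under each alternative except 1: without LH replicates 3 and 4 together, LH vs. Ctrl had 6 calls and the F-test 3, and the median difference in LH vs. Ctrl was 0.249. Counts at an unadjusted p under 0.05 moved more. Median-ratio size factors gave 2, 7 and 2 members in Ctrl vs. HC, NLH vs. Ctrl and LH vs. NLH, where the shares of all genes also moved, to 4.5%, 7.87% and 10.7%. The methods' Student test and the fit on only the groups compared each gave 2 members in Ctrl vs. HC (9.36% and 9.65% of all genes) and 0 in LH vs. NLH (3.08% and 3.02%). Without LH replicates 3 and 4, it was 8, 16 and 4 members in NLH vs. Ctrl, LH vs. Ctrl and LH vs. NLH, where 13.2%, 28.1% and 17.3% of all genes were counted. Leaving out 1 mouse at a time gave 0 to 1 members in Ctrl vs. HC, 3 to 7 in NLH vs. Ctrl (7 without NLH replicate 4), 3 to 11 in LH vs. Ctrl (3 without Ctrl replicate 1, 11 without LH replicate 4) and 0 to 5 in LH vs. NLH (0 without NLH replicates 3 or 4 or LH replicate 3, and 5 without LH replicate 2). All genes ranged over 1.88% to 4.67%, 4.02% to 10.0%, 8.7% to 18.9% and 5.21% to 13.4% in the same fits. The cause was not tested. The called Psmd2 transcript was lost (0 calls in LH vs. Ctrl) with 0.01 added, with a mean FPKM of at least 1, which removes it, with the Student test, with the replicate block and without LH replicates 3 and 4. Leaving out 1 mouse gave 0 to 1 calls, with 0 for any of the 4 Ctrl mice, NLH replicate 2 and LH replicates 3 or 4. With 1 added it was also called in NLH vs. Ctrl, the 1 call there. Whether the replicate numbers pair the mice is not stated in the labels. Residuals of mice with the same number had a median r of -0.0294 over 24 pairs, from -0.0807 to 0.144. With the replicate block 0, 5, 5 and 1 members were at an unadjusted p under 0.05 (limma) in the 4 comparisons, and 0 members were called. Of 100 differences of named members, 60 changed sign under at least 1 alternative, among them Psmc1 in LH vs. Ctrl (-0.02 to 0.43), which was called without LH replicates 3 and 4. The share of immunoproteasome genes was also taken over coding rows, an alternative chosen after seeing the data. Depth limits Psma8, Psmb8 and Psmb9, and the LH group most.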
